A study of Mus musculus with 4 samples.

Results

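The 8 genes described here code for the kinase ERK1 (Mapk3) and for proteins that limit ERK signalling: the dual-specificity phosphatases Dusp1, Dusp4, Dusp5 and Dusp6, the Sprouty proteins Spry2 and Spry4, and the Sprouty-related Spred1. They were chosen as named members of this pathway, with earlier results of these data known, and each matched 1 of the 54532 rows of the deposited count table. RNA came from gonadotropes, the pituitary cells that make the gonadotropins, sorted from male mice of mixed strain aged 10 to 12 weeks. There were 4 libraries, 2 of control mice and 2 of mice in which the gene of the zinc-finger transcription factor GATA2 was conditionally deleted (cKO in the labels), by the series' title in gonadotropes. The Cre driver, the floxed allele, the genotype of the controls beyond that word, and whether animals were pooled are not stated in the labels. The labels describe sorted cells whereas the design text speaks of whole pituitaries, and the labels were followed.

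ERK1 is one of the kinases at the end of the RAS, RAF and MEK cascade, and it is switched on by phosphorylation. ERK activity induces transcription of several of its own inhibitors: DUSP1, DUSP4 and DUSP5 are nuclear phosphatases that remove phosphate from MAP kinases, DUSP6 does so in the cytoplasm, and Sprouty and SPRED proteins act further up, between receptor and RAF. Because these inhibitors are made in response to ERK, their transcripts are often read as a measure of recent pathway activity. In gonadotropes the receptor of gonadotropin-releasing hormone (GnRH) activates ERK through protein kinase C.

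Promoter sequence is shown for the pair of feedback genes with the highest levels, Dusp5 and Dusp1, since Dusp5 differed most between the groups. RefSeq windows (GRCm38.p6, 250 bases before to 50 after the start) were given for 5 of the 8 genes, and the part before any annotated transcript start is printed, in the gene's own direction. Capitals mark CArG boxes (the motif bound by serum response factor), the cAMP response element TGACGTCA and its short core TGACG, each on either strand.
Dusp5, chr19:53528895-53529108, plus strand: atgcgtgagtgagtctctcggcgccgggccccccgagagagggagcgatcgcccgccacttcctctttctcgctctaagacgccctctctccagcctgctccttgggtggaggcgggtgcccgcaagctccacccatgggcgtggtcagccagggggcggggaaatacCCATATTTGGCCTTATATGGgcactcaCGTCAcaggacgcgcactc
Dusp1, chr17:26508520-26508722, minus strand: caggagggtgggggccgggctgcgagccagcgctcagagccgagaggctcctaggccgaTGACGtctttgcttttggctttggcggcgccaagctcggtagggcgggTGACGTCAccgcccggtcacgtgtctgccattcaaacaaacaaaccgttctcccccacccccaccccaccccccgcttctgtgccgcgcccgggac

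The Dusp5 window held 2 CArG boxes end to end, beginning 82 and 72 bases before the RefSeq start, and 1 short core at 55 bases. A CArG box was found in 1.63% of the 32851 promoter windows of this length, and 2 or more in 6 windows. The Dusp1 window held 1 full cAMP response element at 143 bases before the start, whose 2 overlapping cores are part of it, and a separate core at 191 bases. The full element was found in 1.79% of windows and the core in 20.8%. In the windows of Dusp6, Spry2 and Spred1 the CArG box, the core, the AP-1 motif TGANTCA (7.81% of all windows) and the ETS motif CCGGAA (14.9%) gave 1 match, of the ETS motif after the start of Spry2. The GATA motif AGATAA, present in 11.2% of all windows, and its variant TGATAA, present in 9.05%, were not among the letters of any of the 5. A match describes the letters only and does not show binding.

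Total estimated counts were 10646909 to 21135301 per library, lowest in control replicate 1, which also stood apart (across genes, its log2 CPM had a Pearson's r of 0.841 to 0.889 with the other libraries, against 0.902 to 0.928 among those). CPM is a gene's count in each 1000000 of the library. Gata2 itself had 537 and 526 CPM in controls and 221 and 214 in cKO (log2 fold change -1.29, SE 0.14, edgeR adjusted p = 0.0473), a check of the labels. All 5 gonadotrope markers were detected in every library, and their summed level was 13610 to 15060 CPM in controls and 6660 to 7934 in cKO. The hormone subunit genes Cga, Lhb and Fshb made up most of that sum. Nr5a1 overlapped between the groups, with 277 and 397 CPM in controls and 275 and 372 in cKO (log2 fold change -0.06, SE 0.23). The 5 lactotrope markers, of which Agtr1b was at 0 throughout, summed to 358 and 629 CPM in controls and 1350 and 1365 in cKO. The 13 mitochondrially encoded transcripts summed to 51850 and 60980 CPM against 75780 and 90220. Markers of corticotropes and melanotropes summed to 7306 and 10020 CPM in controls and 6166 and 7279 in cKO. Nearly all of that was Pomc (7161 and 9813 against 6032 and 7145). All 4 of these markers had a log2 fold change below 0, and only for Pomc did the groups not overlap. The other markers of that list were at 145 CPM or below, and Pax7 was at 0 in cKO replicate 1. Summed somatotrope markers varied within groups (1137 and 2389 CPM against 2170 and 405). Thyrotrope markers summed to 77.2 and 68.7 CPM in controls and 136 and 92.3 in cKO. Dio2 made up most of that sum (54.9 and 52.6 against 116 and 82.7). Tshb went the other way, with 22.3 and 13.7 CPM in controls and 7.33 and 7.08 in cKO. Stem and folliculostellate markers summed to 63.4 and 68.1 CPM in controls and 92.7 and 112 in cKO. Sox9 led that sum (24.4 and 27.4 against 58.0 and 72.95), while Aldh1a2 was lower in cKO (22.4 and 21.9 against 8.3 and 16.6). Of the tested stem markers 2 had a log2 fold change above 0 and 2 below. Endothelial (10.1 to 30.5), leukocyte (3.15 to 21.2), stromal (0.0909 to 18.7) and erythroid markers (1.86 to 36.9) were low, with C1qa and Emcn at 0 in all 4 libraries. A list of 11 immediate-early and heat-shock genes that tissue dissociation is known to raise summed to 14290 and 16860 CPM in controls and 15700 and 15720 in cKO. Of the 11, 2 were higher in cKO at an unadjusted p under 0.05 by edgeR, against 3.15% of all genes. In sorted bulk samples fewer cells of a type and less RNA per cell cannot be told apart.

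The mean level of Dusp5 was 1.99 times as high in cKO as in controls, with an adjusted p by edgeR of 0.394. Both cKO libraries were above both controls, which differed from each other by 1.55 times. Without control replicate 1 its log2 fold change was 0.70. Dusp1 and Mapk3 stayed within a narrow band, and the low-level members varied as much within groups as between them. All 8 genes passed the filter on low counts. Of these, 0 passed an adjusted p under 0.05 by edgeR, against 0.0576% of all 17349 genes tested (10 genes, 2 higher and 8 lower). At an unadjusted p under 0.05 there was 1, Dusp5, against 7.04% of all genes. DESeq2 and limma-voom each called 1 of the 8, again Dusp5. Of all genes, DESeq2 called 3.53% without the filter and 5.55% with it, and limma-voom 1.48%. The robust and newer forms of edgeR's test called 0 of the 8, against 0.15% and 0.271% of all genes. Both cKO libraries lay on the same side of both controls for 2 of the 8 genes, Dusp5 and Spry2, against 39.0% of all genes. The median log2 fold change (cKO minus control) of the 8 was 0.04, with 4 above 0 and 4 below. That of all genes tested was 0.03, with 52.45% of them above 0.

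**Figure D1:**
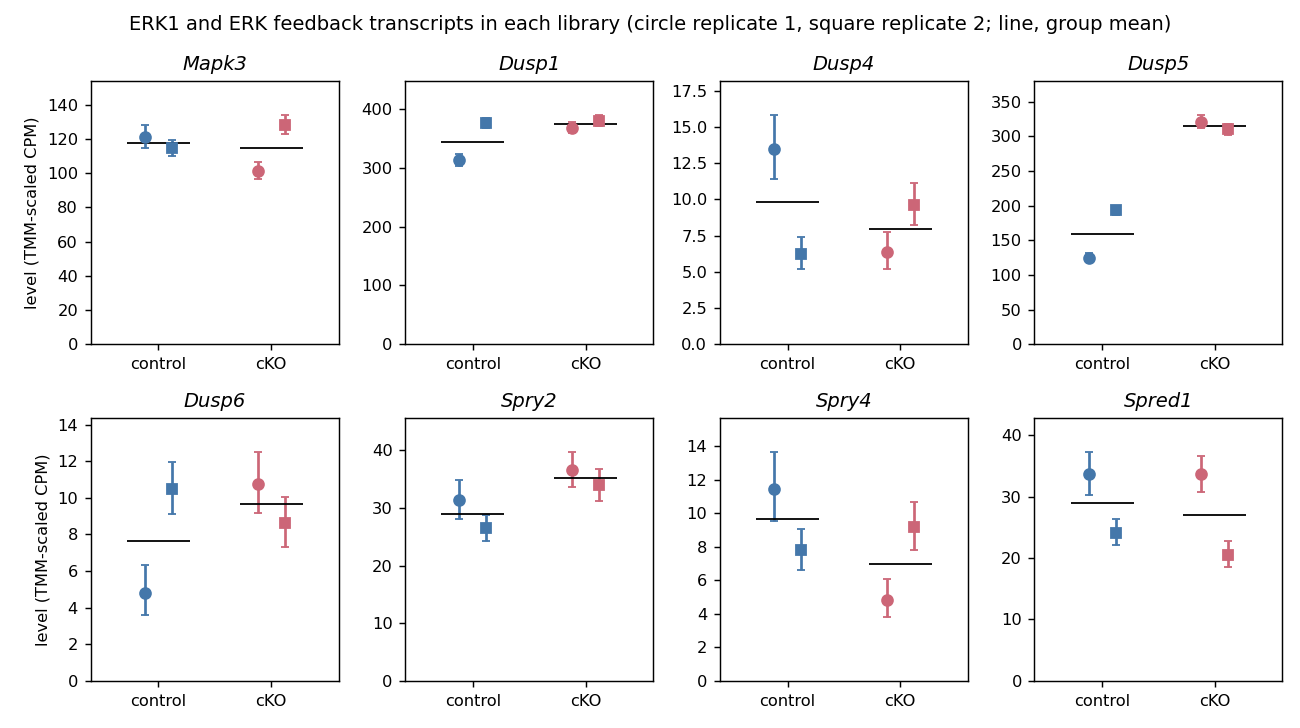
Level of each of the 8 transcripts in TMM-scaled CPM (vertical axes from 0, scaled per gene) in control (blue) and cKO (red) libraries, with exact Poisson 95% intervals that cover counting error only and a black line at each group's mean. Dusp5 stands at 125 and 193 CPM in controls and 321 and 310 in cKO, and the groups overlap for Mapk3, Dusp1, Dusp4, Dusp6, Spry4 and Spred1.

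Mapk3 (ENSMUSG00000063065.13, mm10 chromosome 7, 126759601 to 126765819), which codes for ERK1, had 121 and 115 CPM in control replicates 1 and 2 and 101 and 128 CPM in cKO replicates 1 and 2. The controls lay between the cKO libraries. On the log2 scale the difference was -0.04 (SE 0.20, adjusted p by edgeR 0.999), with a 95% interval from -0.51 to 0.44, that is, from 1.42-fold lower to 1.35-fold higher. It was 0.12 without cKO replicate 1.

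Dusp5 (ENSMUSG00000034765.6, chromosome 19, 53529109 to 53542431) codes for a nuclear phosphatase selective for ERK. It had 125 and 193 CPM in controls and 321 and 310 CPM in cKO, means of 159 ± 48.5 and 316 ± 8.0 (SD, n = 2 each). Both cKO libraries were above both controls, and the controls differed from each other by 1.55 times. The log2 fold change was 0.99 (SE 0.22, 95% interval 0.46 to 1.52), with an edgeR p of 0.00289 before adjustment and an adjusted p of 0.394 over all genes. Its p ranked 127th among the 17349 genes. By DESeq2, run without the filter on low counts, the adjusted p was 3.00e-05, in a fit that called 856 genes in all. On the filtered genes DESeq2 gave 8.94e-05 and called 963 genes, and limma-voom gave 0.000195 and called 256. By edgeR it was also under the threshold without the filter (0.000286, 253 genes called) and without control replicate 2 (0.0033, 681 genes called). With 1 library left out it was 0.70 without control replicate 1, 1.34 without control replicate 2, and between these values without either cKO library. Without control replicate 2 the median of all genes was itself 0.25. An antisense gene, AC137853.2, overlaps 547 exon bases of Dusp5, has no row in the table, and with an unknown strand setting its reads cannot be told apart from those of Dusp5. The lactotrope, thyrotrope, stem-cell and mitochondrial sums above were higher in the same cKO libraries, and the gonadotrope and corticotrope sums lower. Not every marker went with its list's sum: Tshb and Aldh1a2 were lower in cKO, and Nr5a1, Tbx19, Crhr1 and Pax7 overlapped between the groups. The part of these sums in the Dusp5 difference was not tested. The summed level of the dissociation genes in both cKO libraries lay between those of the controls, led by Hspa1b (2946 and 4612 CPM in controls, 3502 and 3685 in cKO). Single genes differed: both cKO libraries were above both controls for 4 of the 11 and below for 2, against 39.0% of all genes in either direction. Junb had 1332 and 1391 CPM in controls and 1806 and 1587 in cKO, and Zfp36 691 and 753 against 989 and 997. The part of these genes in the Dusp5 difference was not tested.

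Dusp1 (ENSMUSG00000024190.6, chromosome 17, 26505590 to 26562128) codes for a nuclear phosphatase that acts on ERK, JNK and p38. Its level was 313 and 376 CPM in controls and 369 and 380 CPM in cKO. Control replicate 1 was the low library and the other 3 were within a narrow range. On the log2 scale cKO minus control was 0.12 (SE 0.15, interval -0.24 to 0.48, adjusted p by edgeR 0.999), and it was -0.016 without control replicate 1. The upper end of this interval overlaps the lower end of that of Dusp5 (0.46), and the difference between the 2 genes was not tested. Dusp1 shares 11 exon bases with Ergic1 on the opposite strand.

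The proportion of Dusp5 to Dusp1 differed between the groups. Their ratio of RPKM (CPM per kilobase of merged exons) was 0.533 and 0.687 in controls and 1.17 and 1.09 in cKO. Of the summed RPKM of the 4 DUSPs, Dusp5 made up 33.3% and 39.6% in controls and 52.6% and 50.9% in cKO, and Dusp1 62.4% and 57.6% against 45.1% and 46.6%. With the length of the principal transcript, which for Dusp1 is 1990 bases against 3311 for the merged exons, the ratio was 0.321 and 0.413 in controls and 0.701 and 0.657 in cKO. Dusp1 was then the higher of the pair in every library. In controls Dusp1 led with either length, and in cKO which gene led depended on the length used. No test was made of this ratio, and with 2 libraries a group an exact permutation test could not reach the threshold.

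Dusp4 (ENSMUSG00000031530.6, chromosome 8, 34807297 to 34819894), for another nuclear ERK phosphatase, had 13.5 and 6.21 CPM in controls and 6.37 and 9.61 CPM in cKO, from 99 to 171 counts. The controls differed by 2.17 times and enclosed both cKO libraries. Its log2 difference was -0.30 (SE 0.75, interval -2.07 to 1.47, adjusted p by edgeR 0.999), and 0.36 without control replicate 1. Dusp6 (ENSMUSG00000019960.8, chromosome 10, 99263231 to 99267489), for the cytoplasmic ERK phosphatase, had 4.82 and 10.5 CPM in controls and 10.7 and 8.60 CPM in cKO. The lowest value, in control replicate 1, rests on 53 counts (exact Poisson 95% interval 3.61 to 6.30 CPM), and the other 3 libraries had 153 to 219. Its log2 fold change was 0.34 (SE 0.76, interval -1.44 to 2.12), -0.12 without control replicate 1 and 1.01 without control replicate 2. For both genes the difference between the controls exceeded the counting error, and the intervals reach past 2-fold changes in either direction.

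Spry2 (ENSMUSG00000022114.5, chromosome 14, 105891947 to 105896819), for a Sprouty protein induced by growth factors, had 31.3 and 26.4 CPM in controls and 36.5 and 33.9 CPM in cKO. Both cKO libraries were above both controls, and the fitted log2 difference, 0.29 (SE 0.31, interval -0.45 to 1.03, adjusted p by edgeR 0.999), did not pass the test. The Poisson intervals of control replicate 1 and of both cKO libraries overlap. Spry4 (ENSMUSG00000024427.6, chromosome 18, 38586247 to 38601415) had 11.5 and 7.79 CPM in controls and 4.82 and 9.16 CPM in cKO, the lowest from 75 counts. The groups overlap, and cKO replicate 1 is the low library. The log2 fold change was -0.46 (SE 0.78, interval -2.28 to 1.36), and -0.07 without cKO replicate 1. Spred1 (ENSMUSG00000027351.14, chromosome 2, 117121374 to 117182279), for a membrane-bound inhibitor of RAS signalling, had 33.6 and 24.1 CPM in controls and 33.6 and 20.5 CPM in cKO. In each group replicate 1 was the higher library, and the libraries differed by 1.39 times within controls and 1.64 times within cKO, around means of 28.9 and 27.1 CPM. Its log2 fold change was -0.09 (SE 0.40, interval -1.03 to 0.85), and 0.16 without control replicate 1 and 0.21 without cKO replicate 2.

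**Figure D2:**
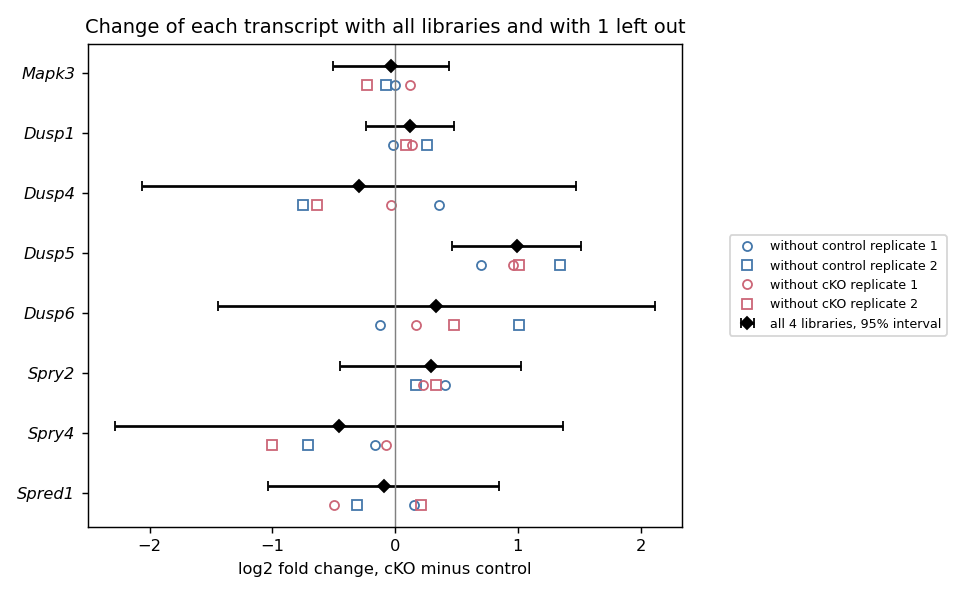
Log2 fold change of each transcript, cKO minus control (horizontal axis), by edgeR with all 4 libraries (black diamonds, 95% interval) and with 1 library left out (open symbols, blue for a control and red for a cKO library). The interval of Dusp5, 0.46 to 1.52, is the only 1 of the 8 that does not include 0, before any adjustment for the number of genes tested.

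Per length of exon the 8 transcripts covered a wide range, and their order by the mean of the 4 libraries was the same with either length. Dusp1 averaged 109 RPKM over the 4 libraries, more than 98.6% of tested genes, Dusp5 95.9 (98.4%) and Mapk3 51.5 (96.2%). Spry2 followed at 15.4 RPKM, above 81.4% of tested genes. Spred1 (4.13 RPKM), Dusp4 (3.25), Dusp6 (2.76) and Spry4 (1.75) were in the lower part of the range. With merged exons the libraries' ranges overlapped between Dusp1 and Dusp5, between Dusp5 and Mapk3, and between each neighbour from Spred1 down to Spry4. At that length these neighbours are not ordered beyond their spread. With principal transcript lengths Dusp1 (157 to 191 RPKM) and Dusp5 (50.4 to 130) did not overlap. Mapk3 and Spry2, and Spry2 and Spred1, did not overlap. Summed over the 7 feedback genes, RPKM was 174 and 215 in controls and 270 and 268 in cKO, of which the 4 DUSPs made up 151 and 197, then 247 and 247. The 3 Sprouty and SPRED genes summed to 22.4 and 17.9 RPKM in controls and 23.5 and 21.2 in cKO. The Sprouty and SPRED sums overlapped between groups. Without Dusp5 the summed RPKM of the other 3 DUSPs was 101 and 119 in controls and 117 and 121 in cKO, which also overlapped.

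**Figure D3:**
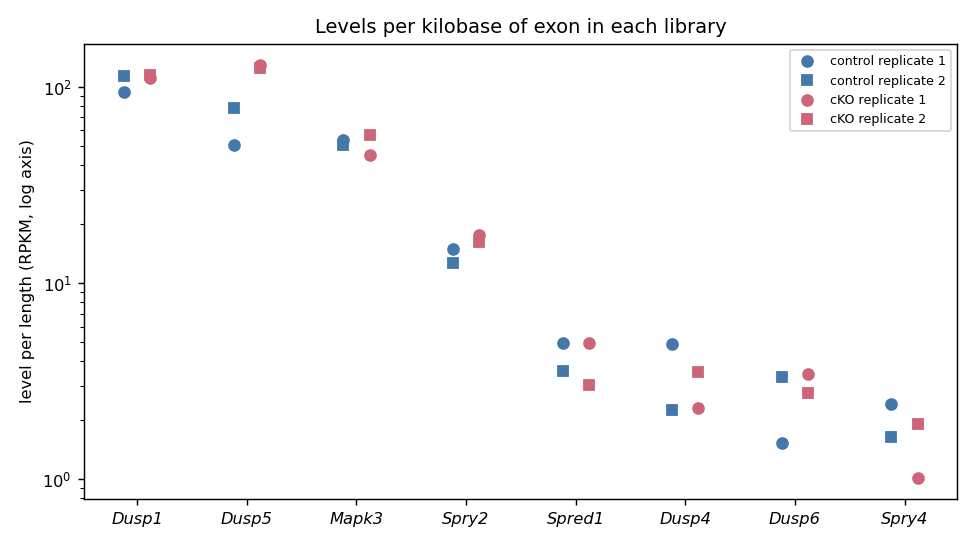
Level of each transcript per kilobase of merged exons (RPKM, log axis) in each library, ordered by the mean of the 4 libraries. Dusp1, Dusp5 and Mapk3 lie between 44.9 and 130 RPKM, Spry2 between 12.7 and 17.5, and the other 4 between 1.01 and 4.96.

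The rest of the pathway was read from 6 lists with 110 genes, of which 108 were tested. By edgeR 0 of these passed the adjusted threshold, 10 were higher and 1 lower at an unadjusted p under 0.05, against 3.15% and 3.88% of all genes. DESeq2, without the filter, called 9 of the 110 after adjustment, 8 higher and 1 lower, against 3.53% of all genes it tested. On the filtered genes it called 10 of 108, against 5.55%. Limma-voom called 0 of the 108, against 1.48% of all genes. It had 17 at an unadjusted p under 0.05, against 8.67% of all genes. The robust and newer forms of edgeR's test also called 0, against 0.15% and 0.271%. The lactotrope, thyrotrope, stem-cell and mitochondrial sums were higher in the same cKO libraries, though Tshb and Aldh1a2 went against their lists' sums. The gonadotrope and corticotrope sums were lower there. The part of these sums in the values that follow was not tested.

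Among 22 tested feedback genes other than the 8, 1 had an unadjusted p under 0.05 by edgeR, against 7.04% of all genes. Their median log2 fold change was 0.20, with 14 above 0, against 52.45% of all genes. Errfi1, an inhibitor of EGF receptors that is itself induced by them, had 455 and 572 CPM in controls and 724 and 664 in cKO (log2 fold change 0.44, SE 0.16, edgeR adjusted p = 0.654), and was the feedback gene of this list with the highest RPKM (169). Dusp8, for a phosphatase of JNK and p38, had 0.58 (SE 0.26), and Pebp1, for an inhibitor of the cascade, had -0.37 (SE 0.18). With 1 library left out at a time the median was 0.02 to 0.12, lowest without cKO replicate 1. From adaptors to MEK, 25 tested genes had a median of 0.04, with 15 above 0, against 52.45% of all genes. Of the 25, 2 had an unadjusted p under 0.05 by edgeR, against 7.04% of all genes. One was the calcium-responsive exchange factor Rasgrf1, with 456 and 512 CPM in controls and 594 and 628 in cKO (log2 fold change 0.33, SE 0.14, edgeR adjusted p = 0.694), which had the highest RPKM of the list (49.5). The RAS relative Rras2 had 1.05 (SE 0.65).

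Kinases and transcription factors on which ERK acts had a median of 0.20 (15 tested, 11 above 0, against 52.45% of all genes). The median was 0.04 without cKO replicate 1. Erf, a repressor that ERK removes from the nucleus, had 53.3 and 69.9 CPM in controls and 95.8 and 112 in cKO (log2 fold change 0.75, SE 0.23, edgeR adjusted p = 0.608). Elk1, a partner of serum response factor at CArG boxes, had 0.70 (SE 0.29), and Srf, the serum response factor gene, 155 and 161 CPM in controls and 219 and 189 in cKO (0.37, SE 0.17). Ets2 was the highest of the list per length (69.1 RPKM) and had 0.25 (SE 0.14).

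Transcripts used as readouts of ERK, with the 8 genes left out, had the highest median of the 6 lists, 0.48. Of the 16 tested, 10 were above 0, against 52.45% of all genes. By edgeR 4 had an unadjusted p under 0.05, all higher, against 3.15% of all genes in that direction. Myc had 24.6 and 45.3 CPM in controls and 65.3 and 84.4 in cKO (log2 fold change 1.10, SE 0.35), and the early response gene Ier3 25.4 and 27.9 against 43.2 and 58.2 (0.93, SE 0.31). The small MAF factor Maff had 0.65 (SE 0.25). The fourth, the AP-1 member Fosl1 (1.14), is named to complete the count and was chosen after its values were seen. By edgeR the adjusted p of Myc was 0.629, of Ier3 0.642 and of Maff 0.679. Egr1, the early growth response factor through which GnRH acts on Lhb and the readout with the highest RPKM (639), went the other way, with 3400 and 2781 CPM in controls and 2752 and 2522 in cKO (-0.23, SE 0.13). Egr1 and the readout Fos are also on the list of genes that tissue dissociation is known to raise. Leaving out control replicate 1 gave a median of 0.19 and 2 genes at an unadjusted p under 0.05, where 4.63% of all genes passed it. Leaving out control replicate 2 gave 0.93 and 7 genes, in a fit where 18.9% of all genes passed and the median of all genes was 0.25. Leaving out cKO replicate 1 gave 0.51 and 5 genes (4.28% of all), and leaving out cKO replicate 2 gave 0.17 and 2 (5.71%). The single values ran from -1.05 to 1.14. Both cKO libraries were above both controls for 7 of the 16 readouts and below for 4, against 39.0% of all genes in either direction. Beside Egr1 the lower ones were Ccnd1 (log2 fold change -0.57), Etv1 (-1.05) and Etv5 (-0.54), likewise named after their values were seen.

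Other MAP kinases and their kinases had a median of 0.19 (16 tested, 11 above 0, against 52.45% of all genes). The median was 0.47 without control replicate 2 and 0.10 without cKO replicate 2. Map2k3, which activates p38, had 38.9 and 47.9 CPM in controls and 74.6 and 76.4 in cKO (log2 fold change 0.80, SE 0.24, edgeR adjusted p = 0.604). The atypical kinase gene Mapk6, the highest of the list per length, had 0.32 (SE 0.16), and the p38 delta gene Mapk13 1.36 (SE 0.72). Receptors that feed the cascade had a median of -0.14 (14 tested, 6 above 0, against 52.45% of all genes). Their median was 0.46 without control replicate 2, where the median of all genes was 0.25. Adcyap1r1, for the receptor of the peptide PACAP, had 273 and 248 CPM in controls and 166 and 207 in cKO (-0.48, SE 0.18, adjusted p = 0.654). The GnRH receptor gene Gnrhr had 326 and 477 CPM in controls and 250 and 319 in cKO (-0.50, SE 0.22), and Ntrk2, for the BDNF receptor, -0.37 (SE 0.17).

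**Figure D4:**
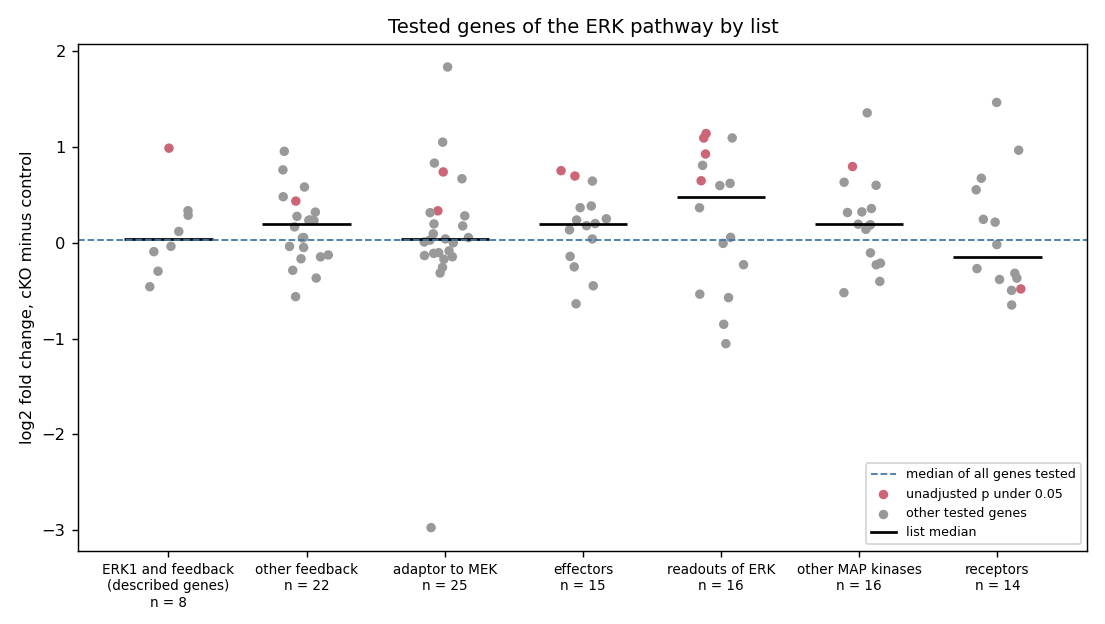
Log2 fold change, cKO minus control (vertical axis), of each tested gene in the 7 lists, with the list median as a black line, the median of all genes tested as a dashed line and genes at an unadjusted p under 0.05 in red. The described genes centre on 0.04 and the readouts of ERK on 0.48, with members of each list on both sides of 0.

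The 5 members whose log2 CPM spanned at least 0.5 were each compared with 5733 other genes by the root-mean-square distance of centred log2 CPM over the 4 libraries, as a description with no test. Dusp5 was most like Vdac3 (distance 0.056), for a channel of the outer mitochondrial membrane, with 23.5 and 39.95 CPM in controls and 65.0 and 58.8 in cKO, and next Ndufs6 (0.059), for a subunit of respiratory complex I. The nearest to Dusp6 were Champ1 (0.030) and Rabgap1l (0.033), and to Dusp4 Ecsit (0.059) and Gmcl1 (0.078). Spry4 was nearest to Cd276 (0.0070) and Rex1bd (0.033), and Spred1 to Wasf3 (0.036) and Sufu (0.042). The points of each comparison are the same 4 libraries, and the 5 members had different nearest genes.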

How the data were processed

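Poly(A) RNA of sorted pituitary gonadotropes was sequenced in 4 libraries, 2 control and 2 cKO, grouped by the genotype and number in their labels. The submitters' processing notes name STAR 2.5.1b, featureCounts 1.5.0-p1 and mm10. Which annotation release and strand setting they used, and how multi-mapping reads were treated, is not stated there. The table as deposited holds the authors' estimated counts for 54532 genes, unscaled, of which 4.5% of values were not whole numbers.

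Names, positions and exon lengths came from GENCODE M21 (mm10), in which 54495 identifiers matched without their version. Counts were rounded, filtered with filterByExpr (minimum count 10, minimum total 15; 17349 genes left) and scaled by TMM. Groups were compared two-sided with edgeR 4.0.16 under R 4.3.3, by its quasi-likelihood test in the default (legacy) form, fitting genotype alone. P-values were adjusted by Benjamini-Hochberg over all genes tested, with a threshold of 0.05. SE, the standard error, is the log2 fold change divided by the square root of F, and 95% intervals use the moderated degrees of freedom. RPKM is TMM-scaled CPM divided by the kilobases of the gene's merged exons. No label ties the libraries to separate animals: the p-values reflect only how these libraries vary, in part perhaps technically. Intervals around a single library's level are exact Poisson and cover counting error only.

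The 8 genes and the lists were chosen with earlier results of these data known. Beyond the 8 genes, the rule named up to 3 genes with the smallest p and the 1 with the highest RPKM from each pathway list, and the 1 with the highest CPM from each marker list. Further genes of the marker and dissociation lists, and some ERK readouts, were named after their values were seen. Alternatives were other scaling, filters and tests (DESeq2 1.42.0, limma-voom 3.58.1), the replicate block, unrounded counts, thinned libraries and each library left out; list values in these fits, DESeq2 on the filtered genes and principal transcript lengths were added after seeing the data. The test was tried on simulated counts with known changes. A gene that the rule named from the pathway lists is not reported here.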

Additional observations from a re-analysis of the deposited data

How the results depend on the processing

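Of 136 values of the 8 log2 fold changes under other settings, 125 kept their direction and their side of the threshold. The 5 that passed it were all of Dusp5, and the count of called members was 1 without a filter, with DESeq2 (with or without the filter), with limma-voom and 0 to 1 with 1 library left out (1 without control replicate 2). The 6 reversals all came from leaving out a library. Over the libraries left out, Dusp1 ran from -0.016 to 0.26, Dusp4 from -0.75 to 0.36 and Dusp6 from -0.12 to 1.01, each reversed without control replicate 1. Mapk3 ran from -0.23 to 0.12, reversed without cKO replicate 1, and Spred1 from -0.50 to 0.21, reversed without control replicate 1 (0.16) and without cKO replicate 2. The count of 10 genes called in all became 856 with DESeq2 run without the filter, 963 with DESeq2 on the filtered genes, 256 with limma-voom, 253 by edgeR without a filter, 47 and 26 with edgeR's newer and robust forms, and 3 where at least 1 CPM in 2 libraries was required. It was 66 to 681 when single libraries were omitted, where the lone library of a group is taken to vary as much as the pair. The causes were not tested.

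Libraries with the same number did not deviate together (r = -0.011 across genes, around the group means). With 2 libraries a group, crossed numbers give the same value with the other sign (0.011). This check cannot show whether the libraries were handled in pairs. The replicate block gave 7 genes and 0 of the 8, with Dusp5 at 1.02 (adjusted p 0.368). Dusp4, Dusp6 and Spry4 rest on 53 to 219 counts in a library, and thinning every library to the smallest total left their SE at 0.73, 0.74 and 0.79.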
